A study of Mus musculus with 3 samples.

Results

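Penk, Nrn1, Ret, Rasgef1a, Ppp2r3a, Bend4, Zeb2 and Cd7 are 8 of the 32285 genes counted in immune cells from the islets of NOD mice, and they were chosen by their high level in a cluster of Eomes-expressing progenitor CD8+ T cells of these same libraries. Their CD8+ T cell values are therefore a description and are given with no test, while tests were run only in CD4+ T, regulatory T, NK and B cells of the same 3 libraries. All libraries held live CD45+ cells sorted from islets of wildtype female NOD mice, a strain that develops autoimmune diabetes, with islets of 2 to 3 mice aged 15 to 16 weeks pooled per library. There was 1 group of 3 replicates from 2 independent experiments, and which library belonged to which experiment is not given in the sources used here, so no batch was tested.

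The libraries held 5844, 9537 and 11566 cells with median depths of 4230, 6415 and 5521 unique molecular identifiers (UMIs, each standing for 1 captured RNA molecule) per cell. Cells with at least 1000 UMIs and under 10% mitochondrial UMIs were sorted into groups by UMIs of marker genes, and the level of a gene is given in CPM, its UMIs summed over all cells of a group in a library and scaled to the same total of UMIs in every group. CD8+ T cells carried Cd3e, at least 2 UMIs of Cd8a and Cd8b1 together and no Cd4, and they were split by whether a UMI of Pdcd1, Tcf7 and Eomes was found. A minus sign thus means that no UMI was found in the cell, not that the gene was off. Of 3258 CD8+ T cells, 239 were Pdcd1+ Tcf7+ Eomes+ (41, 77 and 121 by library) and 268 were Pdcd1+ Tcf7+ Eomes-. No doublet caller was run, and any pair of libraries shared at most 29 cell barcodes.

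PD1, encoded by Pdcd1, marks T cells that have met antigen repeatedly. Among such cells, those that keep TCF1, encoded by Tcf7, can renew themselves and give rise to more differentiated effector or exhausted cells. EOMES is a T-box transcription factor that takes part in memory, exhaustion and cytotoxic programs of T and NK cells. The genes described here act at different places in a cell. Penk encodes proenkephalin, the precursor of opioid peptides, and Nrn1 encodes neuritin, a small protein held at the membrane by a lipid anchor. Ret encodes the receptor tyrosine kinase for the GDNF family of ligands, and Cd7 encodes a T and NK cell surface glycoprotein of the immunoglobulin superfamily. Rasgef1a encodes a guanine nucleotide exchange factor of the Ras family, and Ppp2r3a a regulatory subunit of protein phosphatase 2A. Bend4 encodes a BEN domain protein, and Zeb2 a zinc finger transcription repressor that acts in terminal differentiation of effector T and NK cells.

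RefSeq promoter entries on GRCm38.p6 were found for 4 of the 8 genes (Rasgef1a, Ppp2r3a, Bend4 and Zeb2). The sequence before the first start site of 3 of them is shown, to set 2 genes that were higher in Eomes+ CD4+ T cells (Rasgef1a and Bend4) beside 1 whose difference did not pass the test (Ppp2r3a). Bases that overlap an annotated exon were left out, and capitals mark the letters CAGGTG, which ZEB proteins are known to bind.
Rasgef1a, chr6:118011255-118011437, plus strand: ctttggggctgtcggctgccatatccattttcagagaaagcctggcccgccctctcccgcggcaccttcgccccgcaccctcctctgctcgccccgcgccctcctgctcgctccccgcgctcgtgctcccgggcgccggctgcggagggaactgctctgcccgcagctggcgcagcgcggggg
Ppp2r3a, chr9:101251833-101252082, minus strand: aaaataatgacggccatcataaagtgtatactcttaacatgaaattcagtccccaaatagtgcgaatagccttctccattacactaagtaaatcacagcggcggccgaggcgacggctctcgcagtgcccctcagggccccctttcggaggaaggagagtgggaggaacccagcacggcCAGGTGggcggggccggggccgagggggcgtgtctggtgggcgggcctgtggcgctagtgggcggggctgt
Bend4, chr5:67427810-67427969, minus strand: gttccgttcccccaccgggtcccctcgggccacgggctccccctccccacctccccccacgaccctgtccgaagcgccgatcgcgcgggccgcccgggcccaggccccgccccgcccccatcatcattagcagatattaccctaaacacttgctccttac
The 250 bases before each start were searched on both strands for GGTGTGA (the core bound by T-box proteins), CTTTGNT (TCF and LEF proteins) and CAGGTG. Over 32851 promoters, 3.33%, 15.98% and 17.2% held each of them. None of the 9 entries of the 4 genes held the first or the second. CAGGTG was found in 2 entries, 71 bases before the start of Ppp2r3a and 198 bases before that of Bend4, where it lay in a part annotated as exon that is not shown. A match of CAGGTG and one of GGTGTGA can overlap in the letters GGTG. These are matches of letters only.

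The label of the Pdcd1+ Tcf7+ Eomes+ CD8+ T cells was checked against marker genes. All 6 progenitor markers on the list (Slamf6, Id3, Tox, Xcl1, Ikzf2 and Cd200) were detected, with a summed level of 951 to 1341 CPM by library against 503 to 1970 CPM in Pdcd1+ Tcf7+ Eomes- cells. This sum did not set the group apart, since it was 574 to 1295 CPM in Pdcd1+ Tcf7- Eomes+ cells, 607 to 1534 CPM in Pdcd1+ Tcf7- Eomes- cells, 747 to 1266 CPM in NK cells and 1202 to 1533 CPM in regulatory T cells. The 5 listed terminal markers summed to 254 to 349 CPM, against 153 to 234 CPM in the Pdcd1+ Tcf7+ Eomes- cells and 856 to 1065 CPM in the Pdcd1+ Tcf7- Eomes+ cells. Cd3e, Cd8a, Cd8b1 and Cd4 were fixed by the gate and check nothing. Outside the gate, Ncr1 and Klrb1c were at 0 UMIs. The NK marker list still summed to 141 to 167 CPM against 33.4 to 41.4 CPM in the Eomes- cells, all of it from Klre1 and Fcer1g. B cell markers, which can come from free RNA, summed to 443 to 831 CPM against 588 to 1136 CPM. The part of either in the values below was not tested.

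Penk differed widely between libraries. In Pdcd1+ Tcf7+ Eomes+ CD8+ T cells it was at 60.8, 422 and 262 CPM in replicates 1, 2 and 3. In Pdcd1+ Tcf7+ Eomes- cells it was at 92.3, 31.6 and 15.2 CPM. Replicates 2 and 3 were higher with Eomes and replicate 1 was lower, so the libraries overlapped. A single cell carried 238 of the 724 Penk UMIs of the Eomes+ group (32.9%), and the 10 cells with most Penk carried 63.1%. No other member rested on so few cells, since the 10 highest cells held 19.7% to 36.7% of the UMIs of the other 7.

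Nrn1, the other secreted or membrane-anchored product, was higher with Eomes in replicates 2 and 3 of these cells and lower in replicate 1. It was at 97.7, 165 and 222 CPM in Pdcd1+ Tcf7+ Eomes+ cells. It was at 260, 78.5 and 183 CPM in Pdcd1+ Tcf7+ Eomes- cells. These 2 groups had the highest mean Nrn1 of the 12 cell groups compared, and the range of the former lay inside that of the latter.

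The receptors Ret and Cd7 were higher in the Eomes+ cells of every library. Ret was at 8.68, 67.4 and 91.9 CPM in Pdcd1+ Tcf7+ Eomes+ cells. It was at 3.30, 15.3 and 31.3 CPM in Pdcd1+ Tcf7+ Eomes- cells. Replicate 1 was the low library on both sides, which is why the ranges overlapped although each library moved the same way. Cd7 was at 117, 211 and 162 CPM in the Eomes+ cells. Against these, it was at 92.3, 61.4 and 47.5 CPM in the Eomes- cells. The Cd7 ranges did not overlap.

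Of the signalling genes, Rasgef1a showed a clear separation. It was at 47.7, 40.2 and 63.8 CPM in Pdcd1+ Tcf7+ Eomes+ cells. In Pdcd1+ Tcf7+ Eomes- cells its levels were 11.5, 7.22 and 21.2 CPM. Every Eomes+ library lay above every Eomes- library. Ppp2r3a was at 78.1, 127 and 176 CPM in the Eomes+ cells. It was at 51.1, 65.9 and 93.0 CPM in the Eomes- cells. Each library was higher with Eomes, and the ranges overlapped.

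Of the nuclear genes, Bend4 was at 109, 113 and 150 CPM in Pdcd1+ Tcf7+ Eomes+ cells. Its levels in Pdcd1+ Tcf7+ Eomes- cells were 82.4, 62.3 and 61.6 CPM. The ranges of Bend4 did not overlap. Zeb2 was at 86.8, 184 and 188 CPM in the Eomes+ cells. The Eomes- cells had 92.3, 41.5 and 80.9 CPM of Zeb2. Replicates 2 and 3 were higher with Eomes, and replicate 1 was slightly lower. On the log2 scale the ratios of the mean CPM were 2.42 for Penk, 1.92 for Rasgef1a, 1.75 for Ret, 1.29 for Cd7, 1.09 for Zeb2, 0.86 for Ppp2r3a, 0.85 for Bend4 and -0.11 for Nrn1. These ratios belong to the choice of the genes and support nothing. Under the study's own limits on cells (under 6000 UMIs among them), the ratio of Penk was -0.58, that of Nrn1 1.33, Ret 2.84, Cd7 2.43 and Ppp2r3a 2.16. These limits left 52 Eomes+ and 51 Eomes- cells, with 6 Eomes+ cells in 1 library, below the minimum of 10 cells per library used for the other sums. Without replicate 1 the ratio of Penk was 3.87, and without replicate 2 it was 1.59.

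**Figure D1:**
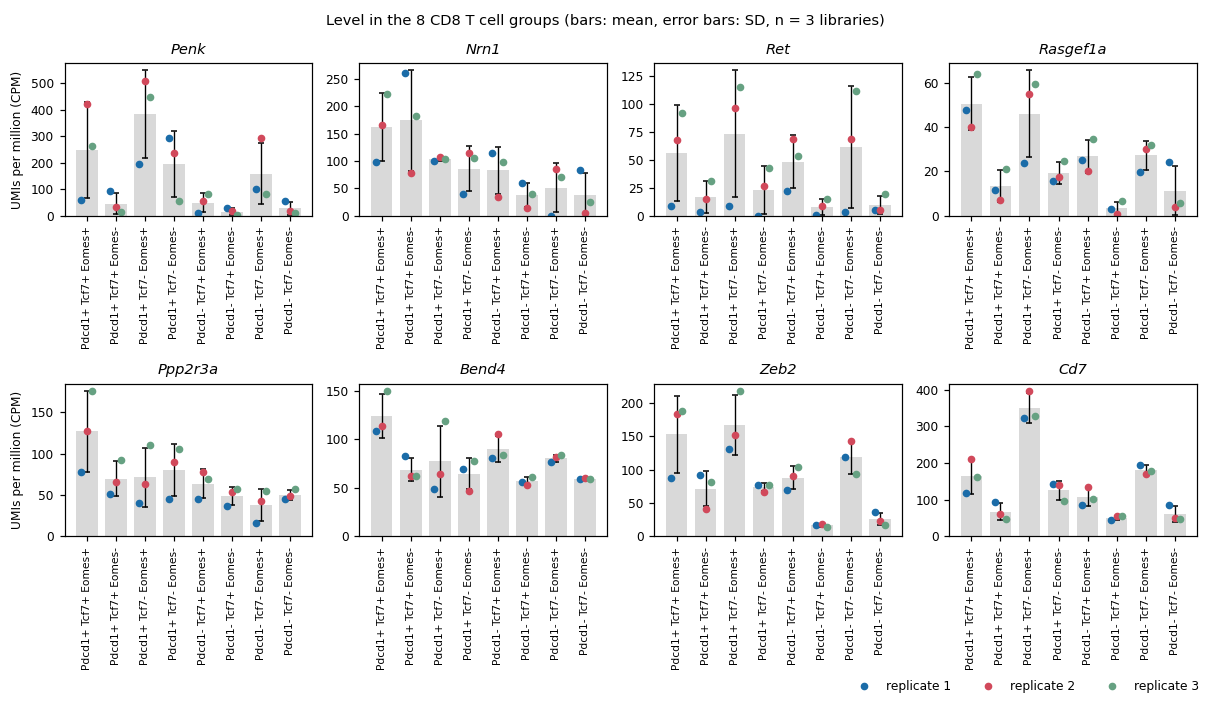
Level of each gene in CPM (vertical axis, a scale of its own per gene) in the 8 groups of CD8+ T cells made by presence or absence of Pdcd1, Tcf7 and Eomes UMIs. Bars are means and error bars SDs of 3 libraries, and points are the libraries: Cd7 reached 350 CPM in Pdcd1+ Tcf7- Eomes+ cells and 164 CPM in Pdcd1+ Tcf7+ Eomes+ cells, while Bend4 was highest in the latter at 124 CPM.

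Across all 8 CD8+ groups, the genes differed in which of the 3 gate genes they went with. Eomes could be compared in 4 pairs of groups and 3 libraries, which gave 12 pairs of sums. Cd7 was higher with Eomes in 12 of 12, Ret, Rasgef1a, Bend4 and Zeb2 in 11 of 12 each, Penk in 9, Nrn1 in 8 and Ppp2r3a in 7. With Pdcd1, Penk and Zeb2 were higher in 12 of 12 pairs, Rasgef1a, Ppp2r3a and Cd7 in 11, Nrn1 in 10, and Ret and Bend4 in 9. Tcf7 divided the genes otherwise. Penk was higher in the Tcf7+ cells in 1 of 12 pairs and Cd7 in 2 of 12, against 9 for Bend4 and 8 each for Nrn1 and Ppp2r3a. These counts describe the cells in which the genes were chosen.

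The 8 genes did not all peak in the Tcf7+ cells. The mean level of Penk was 384 ± 165 CPM (SD, n = 3) in Pdcd1+ Tcf7- Eomes+ cells and 248 ± 181 in the Tcf7+ Eomes+ cells. Cd7 was at 350 ± 40.6 and 164 ± 46.9 CPM in the same groups, with no overlap. For Ret (73.4 ± 56.4 and 56.0 ± 42.8 CPM) and Zeb2 (167 ± 45.5 and 153 ± 57.2 CPM) the ranges of the libraries overlapped widely. Ppp2r3a (71.4 ± 35.8 and 127 ± 49.0 CPM), Bend4 (77.2 ± 36.8 and 124 ± 22.6 CPM) and Nrn1 (104 ± 4.06 and 162 ± 62.3 CPM) had the higher mean in the Tcf7+ cells, also with overlap. Rasgef1a was nearly level, at 46.0 ± 19.5 and 50.6 ± 12.04 CPM. Compared within each library, Penk, Cd7 and Ret were lower in the Tcf7+ cells in 3 of 3. Ppp2r3a and Bend4 were higher there in 3 of 3. The libraries were mixed for the rest, with Nrn1 and Rasgef1a higher in 2 of 3 and Zeb2 in 1 of 3.

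When CD8+ T cells were grouped by the number of Eomes UMIs rather than by presence, the mean of Rasgef1a went from 8.88 ± 3.88 CPM at 0 UMIs to 24.7 ± 3.86 at 1, 35.3 ± 15.8 at 2 and 55.0 ± 15.9 at 3 or more. Each library followed this order. Zeb2 went from 36.6 ± 11.9 CPM at 0 to 185 ± 70.0 at 3 or more. Ret had most of its step between 0 UMIs (11.4 ± 9.82 CPM) and 1 UMI (51.5 ± 36.7 CPM), and reached 67.9 ± 50.4 at 3 or more. Cd7 likewise stood at 67.7 ± 14.6 CPM at 0, 180 ± 33.4 at 1 and 230 ± 69.8 at 3 or more. In replicate 1, however, Cd7 was at 213, 192 and 174 CPM at 1, 2 and 3 or more UMIs. Zeb2 of replicate 1 was at 103, 102 and 105 CPM there. Bend4 was at 60.9 ± 4.91 CPM at 0, 79.3 ± 16.9 at 1, 76.6 ± 22.0 at 2 and 118 ± 28.6 at 3 or more. Ppp2r3a was at 56.0 ± 12.2, 62.9 ± 24.0, 62.6 ± 11.5 and 105 ± 54.2 CPM. Penk and Nrn1 did not rise at each step either. Penk was at 52.8 ± 46.3, 146 ± 18.9, 123 ± 73.1 and 348 ± 212 CPM. Nrn1 was at 65.6 ± 36.5, 81.1 ± 41.2, 62.2 ± 37.1 and 148.5 ± 25.7 CPM. Cells with 3 or more Eomes UMIs were deeper, with a median of 7259 to 9769 UMIs by library against 5198 to 7304 at 0. The part of depth in this order was not tested.

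**Figure D2:**
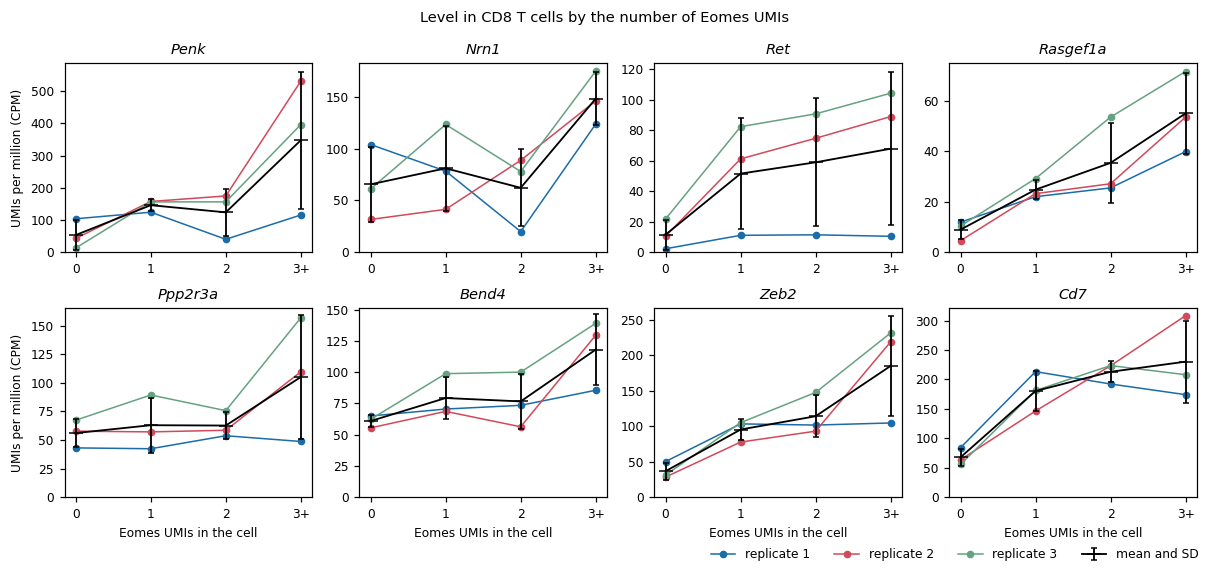
Level of each gene in CPM (vertical axis) in CD8+ T cells with 0, 1, 2 and 3 or more Eomes UMIs (horizontal axis). Colours are the 3 libraries and black marks the mean with its SD: Rasgef1a went from 8.88 to 55.0 CPM, rising at each step in every library, while Ret of replicate 1 stayed between 2.15 and 11.3 CPM.

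To compare shares of cells at equal depth, each cell was thinned to 2000 UMIs. A UMI of Rasgef1a was then found in 11.7% ± 1.11 of Pdcd1+ Tcf7+ Eomes+ CD8+ T cells (SD, n = 3), in 3.00% ± 0.847 of the Eomes- cells and in 0.124% ± 0.0598 of B cells, taken as the background of free RNA. Without thinning the shares were 31.4%, 9.65% and 0.378%. Ret was found in 13.4% ± 7.71, 3.05% ± 2.09 and 0.0625% ± 0.0572 of the same cells. For Nrn1 the first 2 shares were 15.6% ± 7.45 and 16.2% ± 8.44. Zeb2 was found in 8.90% ± 1.75 of B cells, against 0.0625% to 0.661% for the other 7 genes, and B cells are known to express it, so that B cells are no background for Zeb2. Median depths before thinning were 6697 to 11080 UMIs in the Eomes+ CD8+ cells and 4309 to 6784 in B cells.

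A thinned Pdcd1+ Tcf7+ Eomes+ CD8+ T cell held 1.47 ± 0.427 of the 8 genes on average, and 39.8% ± 14.1 of these cells held 2 or more. The Pdcd1+ Tcf7- Eomes+ cells held 1.40 ± 0.206 and the Pdcd1- Tcf7+ Eomes- cells 0.391 ± 0.0344, compared with 0.110 ± 0.0162 in B cells. Over all thinned CD8+ T cells, each of the 28 pairs of genes was found in the same cell more often than the product of their shares gives, with a median ratio of 2.06. The ratio was highest for Penk with Zeb2 (67 cells against 18.6) and for Ret with Rasgef1a (27 against 7.53). It was lowest for Nrn1 with Cd7 (42 against 34.6). Within the Pdcd1+ Tcf7+ Eomes+ cells the median ratio was 1.30, and 25 of 28 pairs were above 1. Taken library by library, 12 of these 28 pairs were above 1 in every library, against 24 of 28 over all CD8+ T cells. Within the Pdcd1+ Tcf7+ Eomes+ cells, Penk with Zeb2 was found in 16 cells against 10.2. Ret with Rasgef1a was found there in only 5 cells against 4.47. The cells share libraries and gates, so this is a description.

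Ret and Rasgef1a are also neighbours in the genome, which played no part in their choice. Rasgef1a lies on chromosome 6 from 118011438 to 118091546 on the plus strand and Ret from 118151745 to 118197718 on the minus strand (GRCm38). Their ends are 60.2 kb apart, with 1 counted gene between them, Csgalnact2, which encodes an enzyme of chondroitin sulfate synthesis. The stretch with 200 kb on either side held 12 counted genes, the pair included. In it, Csgalnact2 was at 8.80 ± 4.93 CPM in Pdcd1+ Tcf7+ Eomes+ CD8+ T cells and 10.9 ± 0.838 in Eomes- cells. Hnrnpf, an RNA-binding protein gene, was at 495 ± 88.3 and 476 ± 55.3 CPM, and Bms1, a ribosome biogenesis gene, at 57.7 ± 5.38 and 58.9 ± 13.0 CPM. These neighbours were looked at after the values of Ret and Rasgef1a were seen.

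CD4+ T cells were not used to choose the genes, and they were tested for the same split. CD4+ T cells carried Cd4 and no Cd8a, Cd8b1 or Foxp3. Unlike in the CD8+ gate, Cd3e was not required, and 5858 of all 6543 CD4+ T cells carried it. Among those with Pdcd1, 298 had Eomes (28, 123 and 147 by library) and 1809 did not. Of the 8 genes, 6 were higher in the Eomes+ cells and none was lower, where 1.58% of 13897 genes tested were higher and 1.79% were lower (edgeR's quasi-likelihood test, each library a block, adjusted p under 0.05). The median log2 fold change of the 8 was 1.80 and that of all genes -0.068. Leaving out a library or changing the method or the cells used gave 4 to 6 members higher, where 0.41% to 2.17% of genes tested were higher. In 6 of these 12 alternatives 1 member, Nrn1, was called lower.

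Of the 8 genes, Ret rose most. It was at 38.3, 120 and 45.9 CPM in Pdcd1+ Eomes+ CD4+ T cells and at 2.93, 3.39 and 2.94 CPM in Pdcd1+ Eomes- cells. All 3 libraries were higher with Eomes and the ranges were far apart, with a log2 fold change of 4.42 (SE 0.32, n = 3, adjusted p = 1.3e-08, edgeR), which was 3.77 without replicate 2. Replicate 1 was again the lowest library with Eomes, though close to replicate 3, and its sum came from 28 cells. The RET ligands and co-receptors (9 genes listed) were hardly present: only Gfra1, the co-receptor for GDNF, had enough UMIs to be tested, with 3 UMIs in the Eomes+ and 4 in the Eomes- cells, and its difference did not pass (adjusted p = 0.66, edgeR).

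Cd7 was at 131, 275 and 84.3 CPM in Pdcd1+ Eomes+ CD4+ T cells, compared with 11.7, 12.5 and 20.5 CPM without Eomes. This was a log2 fold change of 3.23 (SE 0.29, adjusted p = 3e-07, edgeR), with 3 of 3 libraries higher. It was 2.36 without replicate 2 and 4.12 without replicate 3. Rasgef1a was at 43.8, 42.3 and 37.7 CPM against 6.84, 6.10 and 7.57 CPM. The 3 libraries of Rasgef1a lay close together on each side, with a log2 fold change of 2.49 (SE 0.31, adjusted p = 2.4e-05, edgeR). Bend4 was at 43.8, 68.7 and 54.7 CPM against 4.40, 10.7 and 11.5 CPM. Its log2 fold change was 2.46 (SE 0.22, adjusted p = 2.9e-07, edgeR), again in 3 of 3 libraries. Ret, Cd7, Rasgef1a and Bend4 were called higher under each of the 12 alternatives tried.

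Penk and Zeb2 moved less. Penk was at 936, 1046 and 521 CPM in Pdcd1+ Eomes+ CD4+ T cells and at 269, 372 and 338 CPM in Eomes- cells. The ranges did not overlap and the log2 fold change was 1.14 (SE 0.25, adjusted p = 0.0087, edgeR), but the call was lost without cells that carry an NK marker (adjusted p = 0.051), without the library block (0.39) and with DESeq2 (0.23). Under the study's limits on cells the log2 fold change of Penk was 2.16 (adjusted p = 5.6e-35, edgeR). These limits left 105 Eomes+ and 681 Eomes- cells, with 19 Eomes+ cells in 1 library. That p-value comes from fewer cells of the same 3 libraries and is not read as stronger support than the one with all cells. With all cells, the 10 Eomes+ cells with most Penk held 39.7% of the Penk UMIs of their group. Zeb2 was at 71.2, 143 and 117 CPM against 56.2, 80.1 and 68.4 CPM. Each library was higher with Eomes, with a log2 fold change of 0.70 (SE 0.19, adjusted p = 0.038, edgeR), and the call was lost without replicate 2 (0.14), under the study's limits on cells (0.061), without the block (0.45) and with DESeq2 (0.22).

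Nrn1 and Ppp2r3a did not pass. Nrn1 was at 10.95, 73.1 and 95.4 CPM with Eomes and at 123, 115 and 142 CPM without. It was lower in 3 of 3 libraries, with a log2 fold change of -0.77 (SE 0.28, adjusted p = 0.18, edgeR), and 6 of the 12 alternatives called it lower, each of those that leave out a library among them. Under the study's limits it was -1.75. Ppp2r3a was at 32.9, 115 and 118 CPM with Eomes and at 47.4, 89.3 and 119 CPM without. The libraries of Ppp2r3a overlapped and its log2 fold change was 0.064 (SE 0.16, adjusted p = 0.92, edgeR).

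Markers of NK cells moved with this comparison. The 5 listed NK markers summed to 62.9 to 334 CPM in Pdcd1+ Eomes+ CD4+ T cells and to 24.6 to 50.8 CPM in Pdcd1+ Eomes- cells. After removal of cells with a UMI of Ncr1, Klrb1c, Klre1 or Fcer1g, 5 of the 8 genes were still called higher, and the call of Penk was lost. There, 1.59% of 13384 genes tested were called higher. This removal left 233 Eomes+ cells, with 14 in the library that held fewest. B cell markers summed to 745 to 14628 CPM and 3829 to 12779 CPM in the same groups. Depth was alike, with medians of 3986 to 6756 UMIs per cell with Eomes and 4616 to 7320 without.

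**Figure D3:**
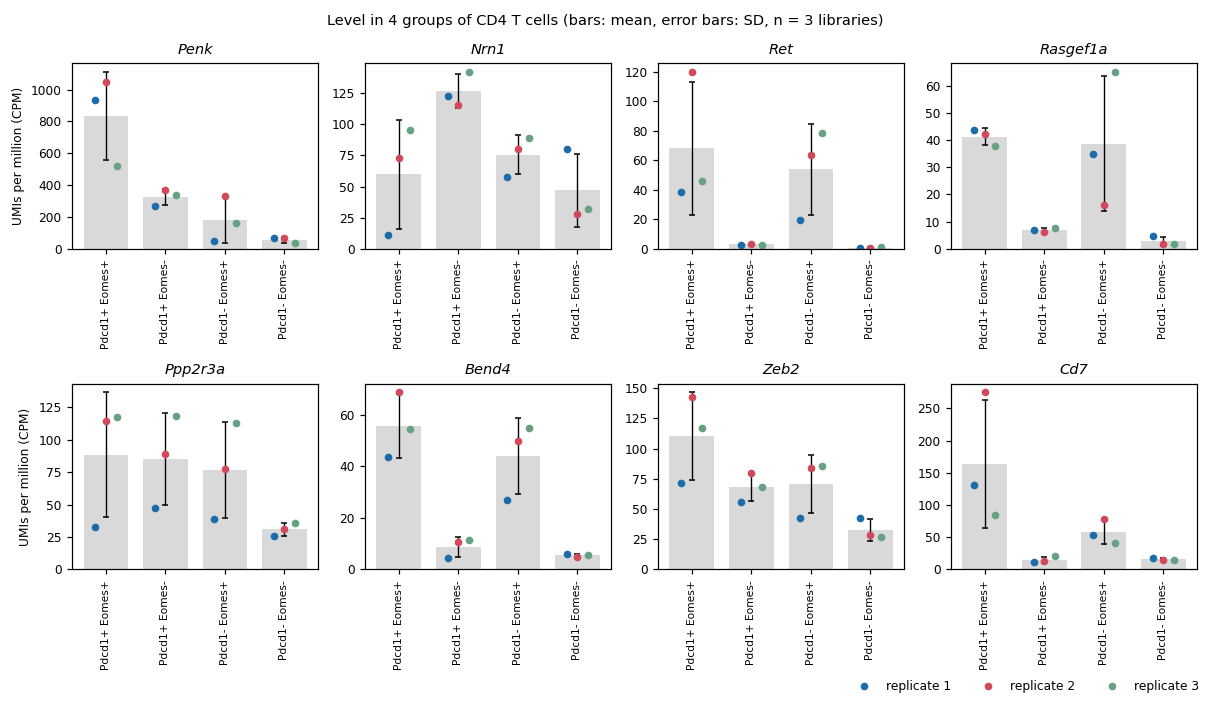
Level of each gene in CPM (vertical axis) in CD4+ T cells split by Pdcd1 and Eomes UMIs, with bars for the mean, error bars for the SD and points for the 3 libraries. Ret stood at 68.0 and 54.0 CPM in the 2 groups with Eomes and at 3.09 and 0.891 CPM in those without, whereas Penk was at 835 CPM with both gate genes and at 57.3 CPM with neither.

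Genes of related function were taken from lists drawn up with the CD8+ T cell results known. Of 18 genes of terminal and effector differentiation, 12 were higher in Pdcd1+ Eomes+ than in Pdcd1+ Eomes- CD4+ T cells and none was lower, with a median log2 fold change of 1.40. Over all 13897 genes tested, 1.58% were higher and 1.79% lower. Prf1, which encodes the pore-forming perforin, rose by 3.36 on the log2 scale (SE 0.28, adjusted p = 1.1e-07, edgeR). Ccl5, a chemokine, rose by 3.18 (SE 0.24, adjusted p = 1.3e-08, edgeR), and Nkg7, a cytotoxic granule gene, by 2.33 (SE 0.23, adjusted p = 1.1e-06, edgeR). Of 14 progenitor genes, 2 were higher and 3 lower. Xcl1, a chemokine, rose by 2.37 (SE 0.43, adjusted p = 0.0017, edgeR) and Myb, a transcription factor of stem-like T cells, by 1.12 (SE 0.15, adjusted p = 6.7e-05, edgeR). Ccr7, the homing receptor of naive and central memory cells, fell by 1.06 (SE 0.20, adjusted p = 0.0031, edgeR).

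Among the other subunits and regulators of protein phosphatase 2A, 1 of 15 tested was higher, where 1.58% of all genes were higher and 1.79% lower. This gene was Ppp2r2c, a B-type regulatory subunit. It was at 43.8, 28.2 and 14.8 CPM in Pdcd1+ Eomes+ CD4+ T cells and at 1.47, 1.02 and 0.561 CPM in Pdcd1+ Eomes- cells, from 60 and 13 UMIs. Its log2 fold change was 4.62 (SE 0.55, adjusted p = 1.4e-05, edgeR), with 3 of 3 libraries higher. In CD8+ T cells Ppp2r2c was at 19.2 ± 0.616 CPM in Pdcd1+ Tcf7+ Eomes+ and 3.06 ± 1.43 CPM in Pdcd1+ Tcf7+ Eomes- cells. Of 11 Ras and Rap exchange factors tested, Rasgef1b, a relative of Rasgef1a, was higher by 1.27 (SE 0.31, adjusted p = 0.024, edgeR) and Rapgef6 was lower (log2 fold change -0.64, SE 0.14, adjusted p = 0.0091, edgeR). No gene passed among 4 opioid genes, 5 BEN domain genes, 9 partners and targets of ZEB2 and 3 genes related to Nrn1 or Cd7. Single calls in lists this short are not read as results about the lists.

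Pdcd1 was compared among CD4+ T cells without Eomes, 1809 cells against 4309. Of the 8 genes, 5 were higher with Pdcd1, where 4.09% of 13897 genes were higher and 3.58% lower. Penk rose by 2.43 on the log2 scale (SE 0.25, adjusted p = 1.6e-06, edgeR), from 69.8, 67.0 and 35.2 CPM to 269, 372 and 338 CPM. Every Pdcd1+ library was above every Pdcd1- library. Nrn1 rose by 1.43 (SE 0.24, adjusted p = 0.00036, edgeR), from 80.4, 28.3 and 32.3 CPM to 123, 115 and 142 CPM. Ppp2r3a rose by 1.28 (SE 0.14, adjusted p = 2.5e-06, edgeR), from 25.8, 31.0 and 35.9 CPM to 47.4, 89.3 and 119 CPM. Thus Nrn1 and Ppp2r3a, which did not pass with Eomes, passed with Pdcd1. Rasgef1a rose by 1.42 (SE 0.33, adjusted p = 0.0069, edgeR) and Zeb2 by 0.96 (SE 0.17, adjusted p = 0.00051, edgeR), each in 3 of 3 libraries. Under the study's limits on cells these were 2.08 and 1.85, and without cells with markers of another class Zeb2 was at 1.68.

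Ret (log2 fold change 1.39, SE 0.46, adjusted p = 0.068, edgeR), Bend4 (0.67, SE 0.22, adjusted p = 0.064) and Cd7 (-0.17, SE 0.28, adjusted p = 0.85) did not pass with Pdcd1. Of the 12 alternatives, 4 called Ret higher, at 1.40 with no filter beyond 1 UMI, 1.34 without cells with markers of another class, 2.04 without replicate 3 and 2.98 under the study's limits. Bend4 was called higher in 2, at 0.68 with no filter beyond 1 UMI and 0.87 without replicate 1. Cd7 was at 11.7, 12.5 and 20.5 CPM with Pdcd1 and 18.5, 15.5 and 14.8 CPM without, so that the libraries overlapped. Whether a gene's change with Pdcd1 differed from its change with Eomes was not tested, and both comparisons use the Pdcd1+ Eomes- cells. Without the library block only Penk passed, and the calls of Nrn1, Rasgef1a, Ppp2r3a and Zeb2 were lost. DESeq2 called 4 genes higher and lost Nrn1, and without replicate 3 the call of Rasgef1a was lost.

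**Figure D4:**
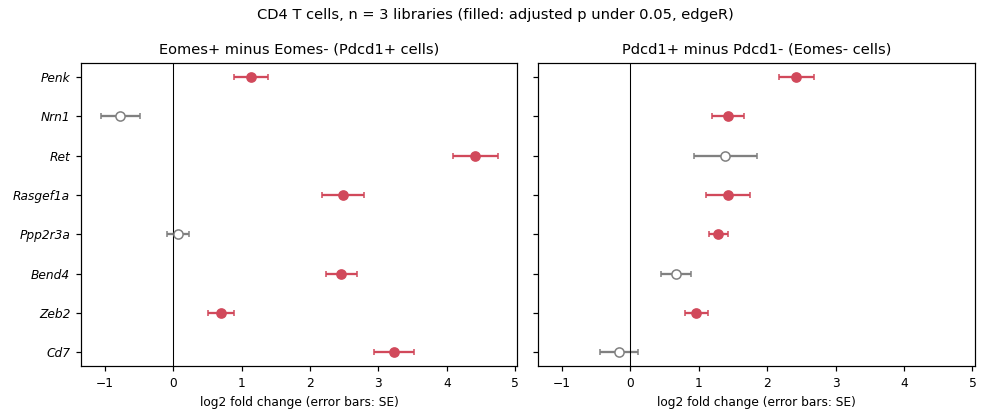
Log2 fold change of each gene (horizontal axis) in CD4+ T cells, for Eomes+ against Eomes- cells among Pdcd1+ cells (left) and Pdcd1+ against Pdcd1- cells among Eomes- cells (right). Points are estimates, error bars their SE and filled points passed at an adjusted p under 0.05: Ret stood at 4.42 and 1.39, Penk at 1.14 and 2.43, and Nrn1 at -0.77 and 1.43.

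Across cell types, all CD4+ T cells (6543) were set against regulatory T cells with Foxp3 (1792), NK cells with Ncr1 and no Cd3e (267) and B cells with Cd79a and no Cd3e (4936). The Foxp3 gate, unlike that of CD4+ T cells, neither required Cd4 nor left out Cd8a and Cd8b1. Neither of these gates required Cd3e, so a cell with Cd4, Cd79a and no Cd3e could count in both CD4+ T and B cells. With Cd3e required, 5858 CD4+ T and 1671 regulatory T cells were left. Without cells with markers of another class, 1260 regulatory T cells were left. Their median depths were 4552, 9851 and 8790 UMIs by library before that removal, against 4480, 6334.5 and 5426 in CD4+ T cells. The part of depth was not tested. In regulatory T cells 1 of the 8 genes differed, Ppp2r3a, where 2.75% of 15366 genes were higher and 2.19% lower than in CD4+ T cells. Ppp2r3a was at 9.22, 21.0 and 30.9 CPM in regulatory T cells and at 33.4, 56.0 and 68.8 CPM in CD4+ T cells. It was lower in 3 of 3 libraries, with a log2 fold change of -1.46 (SE 0.16, adjusted p = 1.7e-05, edgeR), and this call was lost without the library block (adjusted p = 0.17). Under the study's limits Ret (-2.46) and Zeb2 (-1.46) were called lower as well, and without replicate 1 Cd7 was called higher (0.35). Without cells with markers of another class Zeb2 was again called lower and Cd7 again higher. With no filter beyond 1 UMI Ret was again called lower. Penk was at 152, 314 and 170 CPM in regulatory T cells and 157, 232 and 165 CPM in CD4+ T cells, a difference that did not pass (log2 fold change 0.053, SE 0.12, adjusted p = 0.91, edgeR).

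NK cells shared the high level of Cd7, Bend4 and Ret and had hardly any Penk and Nrn1. Of the 8 genes, 3 were higher and 2 lower than in CD4+ T cells, where 6.6% of genes were higher and 8.32% lower. Cd7 was at 191, 328 and 257 CPM in NK cells and 21.0, 32.1 and 21.3 CPM in CD4+ T cells, a log2 fold change of 3.24 (SE 0.16, adjusted p = 1.6e-10, edgeR). Bend4 was at 65.4, 142 and 78.3 CPM against 7.30, 11.9 and 11.2 CPM, a log2 fold change of 3.06 (SE 0.21, adjusted p = 1.3e-08, edgeR). Ret was at 19.9, 41.4 and 61.1 CPM against 3.104, 10.6 and 5.68 CPM, a log2 fold change of 2.53 (SE 0.35, adjusted p = 5.4e-05, edgeR). Every NK library was above every CD4+ library for these genes. NK cells are known to depend on Eomes, but the part of Eomes in these levels was not tested. Ppp2r3a did not pass (log2 fold change -0.57) but was called lower in 4 of the 11 alternatives. These were without replicate 2 (-1.10), the study's limits (-1.38), no filter beyond 1 UMI, and without cells with markers of another class. Of Penk, 2 UMIs were found in NK cells and 8923 in CD4+ T cells, which gives a ratio of 0.00660 per UMI sequenced (exact 95% interval 0.000799 to 0.0238). Of Nrn1, 3 UMIs were found against 3293, a ratio of 0.0268 (0.00553 to 0.0785). Both intervals cover counting error only. Rasgef1a, which rose with Eomes in CD4+ T cells, was at 17.1, 6.63 and 1.57 CPM in NK cells from 11 UMIs. Its difference from CD4+ T cells did not pass (log2 fold change -0.10, SE 0.50, adjusted p = 0.91, edgeR). Zeb2 did not pass either, at 58.7 ± 21.3 CPM in NK cells and 49.3 ± 3.74 CPM in CD4+ T cells (log2 fold change 0.11, SE 0.21, adjusted p = 0.77, edgeR).

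In B cells 7 of the 8 genes were lower than in CD4+ T cells, where 22.6% of genes were higher and 22.9% lower. Their levels were 0.578 to 4.13 CPM on average, and the log2 fold changes ran from -6.28 for Penk to -2.11 for Bend4. Under the study's limits Bend4 was at -3.46 and Rasgef1a at -4.66, against -3.42 for the latter with all cells. Zeb2 stood apart, at 43.5, 56.8 and 63.3 CPM in B cells and 48.0, 53.6 and 46.5 CPM in CD4+ T cells. The libraries of Zeb2 overlapped and the difference did not pass (log2 fold change 0.29, SE 0.13, adjusted p = 0.079, edgeR), although 4 of the 11 alternatives called it higher. These were without replicate 1 (0.39), no filter beyond 1 UMI, without cells with markers of another class, and Cd3e required.

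**Figure D5:**
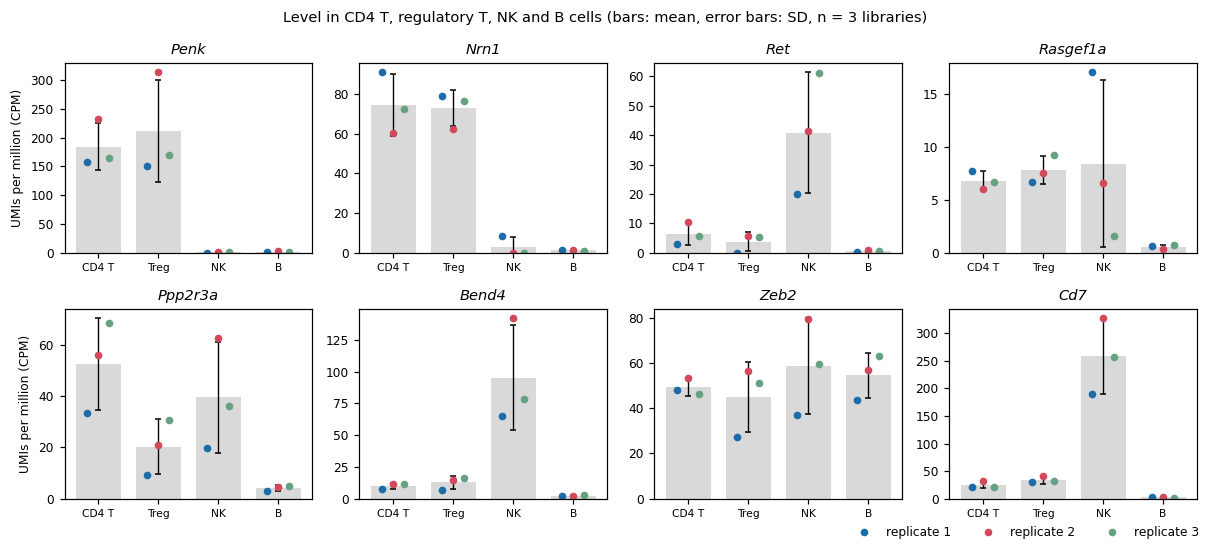
Level of each gene in CPM (vertical axis) in CD4+ T, regulatory T, NK and B cells, with bars for the mean, error bars for the SD and points for the 3 libraries. Cd7 was at 259 CPM and Bend4 at 95.4 CPM in NK cells against 24.8 and 10.1 CPM in CD4+ T cells, Penk was at 1.07 CPM in NK cells, and Zeb2 was at 54.5 CPM in B cells.

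Genes with a like pattern were sought among 6608 genes, over 36 points (the 8 CD8+ groups and the 4 other cell types in 3 libraries), by the Pearson correlation of log2(CPM + 10). The points share libraries and cell types, and the correlations are a description. Cd7 was most like Ccl5 (r = 0.938), Bend4 most like Klrd1, which encodes the NK receptor chain CD94 (r = 0.916), and Penk most like Thap12 (r = 0.901). The closest genes were Tbc1d4 for Nrn1 (0.830), Dleu2 for Ret (0.855), Tnfsf4 for Rasgef1a (0.869), Thap3 for Ppp2r3a (0.831) and Nsmaf for Zeb2 (0.830). For the mean of the 8 genes they were Ier3 and Sh2d2a (both 0.876), Rgs16 (0.865), Stk32c (0.864) and Tnfsf4 (0.860). Among the members themselves the closest pairs were Bend4 with Cd7 (0.843) and Rasgef1a with Zeb2 (0.756).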

How the data were processed

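For each of 3 libraries, prepared from live CD45+ islet cells with 10x 3' chemistry, the authors deposited raw UMI counts made with Cell Ranger 6.0.1 on mm10 per the labels, and no annotation of cells. The 8 genes, the gates and the gene lists were chosen with earlier results of these data known. Libraries are replicates of 1 group, from pooled mice.

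UMIs were summed per library and cell group (at least 10 cells). The 4 CD4+ groups were fitted together, and so were CD4+ T, regulatory T, NK and B cells, with edgeR 4.0.16 in R 4.3.3 (genes with at least 10 UMIs in the fit and no gate gene, TMM normalization, glmQLFit and glmQLFTest, library as a block, Benjamini-Hochberg adjustment over all genes). The SE was taken from the log2 fold change over the root of its F value. The test was also run on simulated sums with known changes. These held no library differences beyond depth and no correlation within a library, so they do not show how the blocked test behaves in these data. Cell groups of 1 library share their mice and their library preparation, which cannot be told apart here, and they were treated as paired. Their deviations from the group mean correlated with r from 0.09 to 0.76 in the first fit (18 pairs, mean 0.37). In the other fit r ran from 0.11 to 0.74 (mean 0.40). Between libraries the means were -0.16 and -0.18. Taking out the group mean by itself pushes these below 0, so they are no contrast to the values within libraries. The block takes out the level of each library, so such p-values rest on how the group differences varied, in these 3 libraries only. The spread of each gene was estimated over all groups of a fit and drawn toward that of other genes.

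Shares come from cells thinned to 2000 UMIs (seed 1), and shallower cells were left out. The alternatives were RLE size factors, DESeq2 1.42.0, other count filters, no block, leaving out each library, the study's cell limits, removal of cells with markers of another class, Cd3e required and, chosen after seeing the data, removal of cells with NK markers. All 8 genes were named, with up to 3 called genes per list that had the largest change, and the genes with the most similar pattern. Csgalnact2, Hnrnpf, Bms1 and Gfra1 were named after their values were seen. Coordinates are from GENCODE M21 (GRCm38).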

Additional observations from a re-analysis of the deposited data

How the results depend on the processing

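In 3 comparisons the counts of called genes fell sharply without the library block. There, 76 genes differed with Eomes among Pdcd1+ CD4+ T cells against 469 with it, 36 against 1067 differed with Pdcd1, and 88 against 758 differed between regulatory and CD4+ T cells. Of the 8 genes, Ret, Cd7, Rasgef1a and Bend4 still passed with Eomes without the block, Penk alone passed with Pdcd1, none passed between regulatory and CD4+ T cells, and the NK and B cell calls of the 8 genes were unchanged in number. With no filter beyond 1 UMI, 725 genes differed with Eomes and 1321 in regulatory T cells. Leaving out 1 library gave 298 to 434 genes with Eomes, 509 to 1328 with Pdcd1, 215 to 1439 in regulatory T cells, 1432 to 2253 in NK cells and 4670 to 7235 in B cells. The lowest count came without replicate 2 for Eomes, Pdcd1, regulatory T and B cells and without replicate 3 for NK cells, and the cause was not tested.

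No called member changed direction in any alternative. Among values that had not passed, Ppp2r3a with Eomes ran from -0.094 (without replicate 2) to 0.19 when 1 library was left out, and turned to -0.25 under the study's cell limits and -0.023 without cells with markers of another class, and Cd7 with Pdcd1 turned to 0.14 under the study's limits. In regulatory T cells Penk ran from -0.076 (without replicate 2) to 0.13 when 1 library was left out, and turned to -0.041 without cells with markers of another class and -0.091 with Cd3e required. There, the study's limits turned Nrn1 to 0.12, Bend4 to -0.12 and Cd7 to -0.26, and removal of cells with markers of another class turned Nrn1 to 0.082. In NK cells Rasgef1a ran from -0.82 to 0.52 (without replicate 3) and Zeb2 from -0.14 (without replicate 2) to 0.31 when 1 library was left out, and Rasgef1a turned to 0.050 under the study's limits.

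In Pdcd1+ Tcf7+ CD8+ T cells, where nothing was tested, the log2 ratio of Penk turned to -0.58 under the study's limits (6 Eomes+ cells in 1 library), and that of Nrn1 turned to 1.33 under those limits, 0.0013 without cells with a UMI of Cd79a, Lyz2 or Csf1r, 0.27 with thinned cells, and 0.26 as the mean over cells, and ran from -0.47 to 0.57 (without replicate 1) when 1 library was left out. The median over the 8 genes stayed between 0.92 and 1.75. Few UMIs limit Rasgef1a and Ret, and few cells limit replicate 1, which held 28 Pdcd1+ Eomes+ CD4+ T cells.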
